A study of Mus musculus with 8 samples.

Results

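The genes described here, 8 that are used together as markers of lipid-laden macrophages, were Trem2, Tyrobp, Gpnmb, Cd9, Fabp5, Plin2, Cd63 and Lgmn. They were taken by symbol from a table of raw read counts, and all 8 of 8 were found among its 24391 gene symbols. The samples were atherosclerotic lesions from brachiocephalic arteries (the branch of the aortic arch abbreviated BCA in the labels), 1 library per mouse, with 4 mice injected with anti-interleukin-1β (IL-1β) antibody and 4 with immunoglobulin G (IgG) as a control. Both groups were C57BL/6 mice, wild type on a smooth muscle lineage tracing background, fed a Western diet for 18 weeks; age, antibody dose and further alleles are not given in the sources used here. Each library is whole tissue that the labels describe as a mixture of cell types, so fewer cells of a type and less RNA per cell cannot be told apart in any value below.

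Foam cells form when macrophages in the artery wall take up lipoprotein lipid and store it as cholesteryl ester in droplets. Single-cell studies of plaques describe a macrophage state of this kind marked by Trem2, a surface receptor for lipids and lipoproteins. Trem2 has almost no signalling tail of its own and works through Tyrobp (also called DAP12), a transmembrane adaptor whose phosphorylated tyrosine motif recruits the kinase Syk. The other genes encode parts of the lipid and lysosome machinery of such cells. Fabp5 is a cytosolic fatty acid carrier and Plin2 a coat protein of lipid droplets. Gpnmb is a glycoprotein of lysosomes and melanosomes, Lgmn the lysosomal protease legumain, and Cd63 and Cd9 are tetraspanins, of late endosomes and of the cell surface respectively. None of the 8 is restricted to macrophages: Cd9 and Cd63 are made by most cells of the wall, and Plin2 by any cell that stores lipid.

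In the mm9 build used by the deposited table, Trem2 lies on chromosome 17 (48485726 to 48491601), Tyrobp on chromosome 7 (31198807 to 31202598), Fabp5 on chromosome 3 (10012585 to 10016610) and Plin2 on chromosome 4 (86302469 to 86315963). Gpnmb (48986517 to 49008181) and Cd9 (125410284 to 125444773) share chromosome 6, while Cd63 is on chromosome 10 (128345975 to 128349874) and Lgmn on chromosome 12 (103632308 to 103677907). These spans run from the first to the last exon, and no exon of another gene in the table overlapped them, so reads of a neighbouring annotated gene were not shared. Reads placed at several sites were left out by the counting, which makes levels of genes with near-identical copies elsewhere uncertain.

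RefSeq promoters (GRCm38.p6, a later build than the counts) were available for 6 of the 8 genes, all except Tyrobp and Fabp5. The sequences of Trem2 and Gpnmb are shown because this pair had the highest correlation over animals of all pairs with a promoter entry, and those of Plin2 and Cd9 because these genes did not follow that pair. Each runs 5′ to 3′ from 250 bases before the transcription start to 20 bases after it, and capitals mark matches to the motifs searched.
Trem2 (chr17:48346151-48346420, plus strand): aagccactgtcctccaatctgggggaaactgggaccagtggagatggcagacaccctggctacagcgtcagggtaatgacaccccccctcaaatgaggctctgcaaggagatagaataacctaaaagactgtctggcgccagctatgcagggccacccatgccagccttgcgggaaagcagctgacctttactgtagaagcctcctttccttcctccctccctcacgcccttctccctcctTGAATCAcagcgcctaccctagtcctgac
Gpnmb (chr6:49036268-49036537, plus strand): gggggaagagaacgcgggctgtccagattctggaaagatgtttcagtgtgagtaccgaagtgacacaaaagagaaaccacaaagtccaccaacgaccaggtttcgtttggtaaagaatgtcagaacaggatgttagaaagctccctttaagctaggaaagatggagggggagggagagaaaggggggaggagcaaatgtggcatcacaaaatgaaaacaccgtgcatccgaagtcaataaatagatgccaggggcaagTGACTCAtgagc
Plin2 (chr4:86670040-86670309, minus strand): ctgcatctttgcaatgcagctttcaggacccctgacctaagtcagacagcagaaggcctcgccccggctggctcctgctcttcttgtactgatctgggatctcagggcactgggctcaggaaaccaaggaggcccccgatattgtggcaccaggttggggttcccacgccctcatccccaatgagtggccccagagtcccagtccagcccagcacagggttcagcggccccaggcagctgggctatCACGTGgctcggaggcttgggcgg
Cd9 (chr6:125494741-125495010, minus strand): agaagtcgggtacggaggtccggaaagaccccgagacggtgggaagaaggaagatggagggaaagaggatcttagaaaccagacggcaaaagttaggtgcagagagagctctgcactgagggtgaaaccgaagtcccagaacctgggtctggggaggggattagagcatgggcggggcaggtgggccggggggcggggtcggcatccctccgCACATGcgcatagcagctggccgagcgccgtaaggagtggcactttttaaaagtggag

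The letters TGANTCA, a looser form of the AP-1 core TGA(C/G)TCA, occurred in Trem2 (first base 9 before the start) and Gpnmb (8 bases after it). Only the Gpnmb match, TGACTCA, is that core, as Trem2 holds TGAATCA. Of 32544 mouse promoters of 300 bases, 7.79% hold TGANTCA on either strand. CACGTG, an E-box bound by MiT/TFE factors among others, occurred across the start of Plin2 and 49 bases before the second of the Lgmn starts, against 7.17% of promoters. CATGTG occurred in Cd9 and at the same Lgmn start (14.2% of promoters), and GGGNNTTCC, an NF-kB type site, once, at that Lgmn start (5.85%). GAGGAAGT, a PU.1 type site (3.11%), and the nuclear receptor repeats DR1 (AGGTCA repeated with 1 base between, 0.0399%) and DR4 (with 4 bases between, 0.0154%) were not found in these windows. No window of Cd63 held any of the motifs. These are matches of letters and were not tested for binding.

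Libraries held 20137336 to 29453014 counts assigned to genes. Macrophage, smooth muscle and endothelial markers were all present: Cd68 averaged 237 ± 101 CPM (counts per 1e+06 counts of a library, scaled by the trimmed mean of M values; SD, n = 4) in IgG animals, Acta2 693 ± 214 CPM and Cdh5 206 ± 44.6 CPM. A few libraries stood apart in ways that touch the results below. The sum of 16 pan-macrophage markers was lowest in IgG animal 1 (4652 CPM) and highest in IgG animal 3 (12063 CPM). The sum of 8 adipocyte markers was 5469 CPM in antibody animal 3, of which Ucp1 made up 3058 CPM. It was 2066 to 3058 CPM in the other animals. IgG animal 2 had the lowest share of alignments assigned to genes (24.4%, against 27.9% to 34.9% in the others). It also had the most multimapping alignments (48.0%, against 35.2% to 43.0%). Rn45s (45S ribosomal RNA) took 7.12% of its assigned counts, against 1.76% to 4.09%.

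Per length, Gpnmb was the most abundant of the 8 genes in every animal. As CPM per kilobase of exon (RPKM), it stood at 891 ± 406 with IgG and 800 ± 96.8 with the antibody (SD, n = 4), 31st of 15980 genes by its mean over all 8 animals. Alone it took 0.172% to 0.509% of all counts in IgG libraries and 0.276% to 0.355% in antibody libraries, and between 45.9% and 57.9% of the counts of the 8 genes together.

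Fabp5 (mean over 8 animals 408 RPKM), Lgmn (359), Plin2 (322), Tyrobp (281), Cd9 (267) and Cd63 (207) followed. Trem2, the receptor that names the state, was the lowest at 147 RPKM and still ranked 365th of all genes. In all 8 animals Gpnmb exceeded Fabp5, and Cd63 exceeded Trem2. The order in between was not fixed: Plin2 exceeded Tyrobp in 4 of 8 animals, Tyrobp exceeded Cd9 in 5, Fabp5 exceeded Lgmn in 6, Lgmn exceeded Plin2 in 6 and Cd9 exceeded Cd63 in 7. Tyrobp, the adaptor, stood above its receptor Trem2 per length, at 313 ± 133 against 153 ± 53.2 RPKM in IgG animals. The order of the 8 genes was identical when total counts replaced the scaling.

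The groups were compared to see how blocking IL-1β affects foam cell genes in an advanced lesion. No member differed detectably between them. With edgeR (quasi-likelihood F-test on all genes, p-values adjusted by Benjamini-Hochberg), 0 of 8 members passed an adjusted p of 0.05, where 0% of the 15980 genes tested passed, and 0 of 8 had an unadjusted p under 0.05, where 3.19% of genes did (2.06% lower with the antibody). DESeq2 also called 0 members, and limma-voom called 0, with 1 of 8 (Fabp5) at an unadjusted p under 0.05, where 17.3% of all genes were in that fit. The log2 fold change was below 0 for 7 of 8 members, with a median of -0.18 over the 8, and 52.3% of all genes tested were below 0, with a median of -0.0096.

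**Figure D1:**
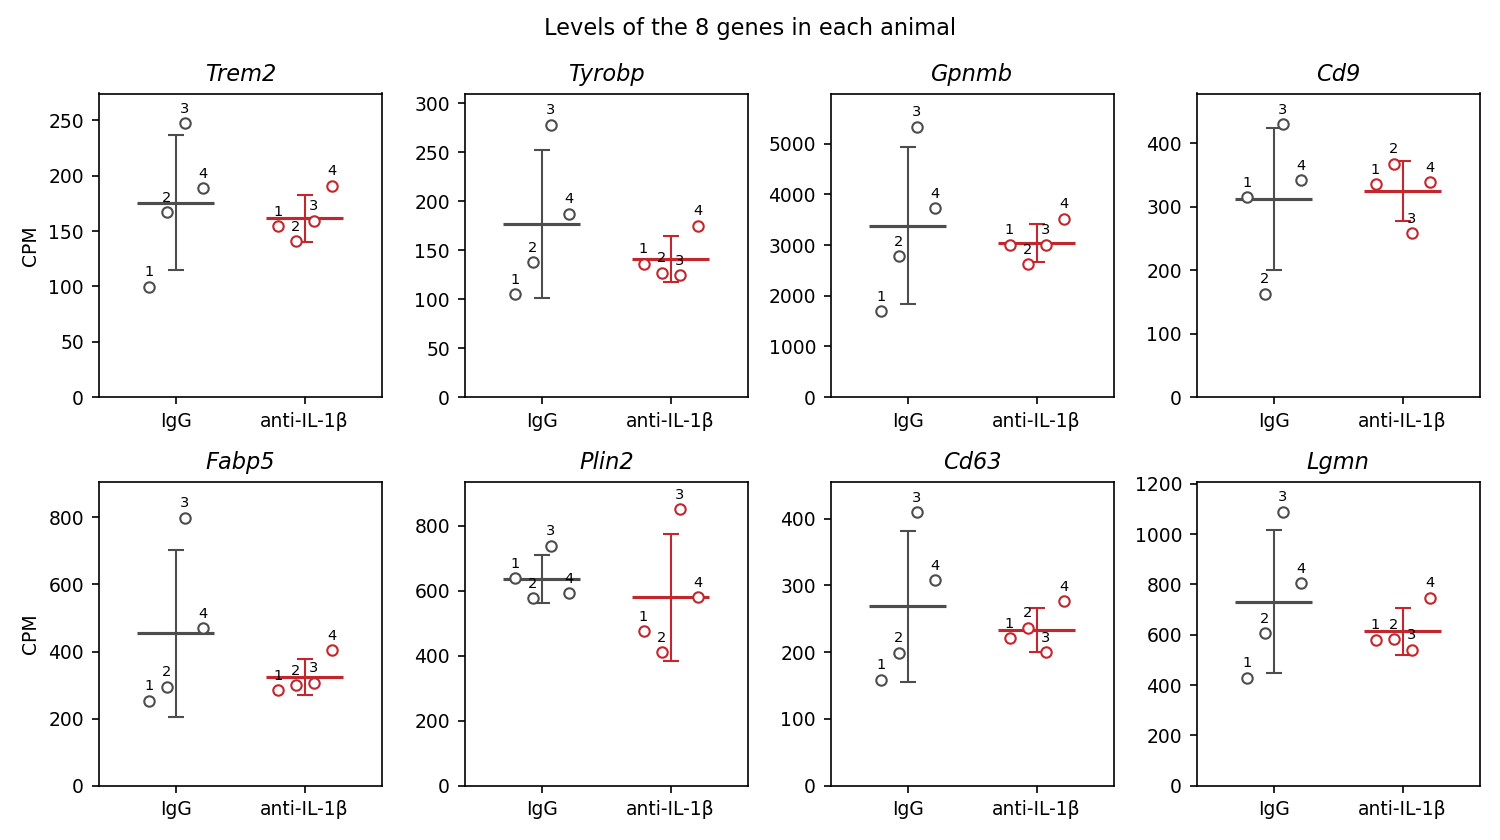
Level of each gene in CPM (vertical axes, from 0) in the 4 IgG and the 4 anti-IL-1β animals, numbered as in the labels; horizontal lines are group means and bars the SD. For Trem2, Tyrobp, Gpnmb, Fabp5, Cd63 and Lgmn, IgG animals 1 and 3 are the lowest and the highest of all 8 and the antibody animals lie between them, whereas Plin2 spreads more among antibody animals.

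Trem2 had 99.8, 167, 248 and 189 CPM with IgG (animals 1 to 4) and 155, 141, 159 and 191 CPM with the antibody (animals 1 to 4). All 4 antibody values lay inside the IgG range. The antibody to IgG difference was -0.12 ± 0.24 on the log2 scale (SE; 95% interval -0.66 to 0.42; edgeR adjusted p = 0.9997), which corresponds to between 0.632 and 1.33 times the IgG level.

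Tyrobp had 105, 138, 278 and 187 CPM with IgG and 136, 127, 125 and 175 CPM with the antibody. IgG animal 3 was the highest and IgG animal 1 the lowest here too, and the groups overlapped. The log2 fold change was -0.33 ± 0.27 (95% interval -0.94 to 0.28; edgeR adjusted p = 0.9997).

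Gpnmb had 1693, 2779, 5335 and 3726 CPM with IgG and 3005, 2624, 3011 and 3520.02 CPM with the antibody. The IgG values thus spread 3.15-fold from lowest to highest and the antibody values 1.34-fold. The log2 fold change was -0.15 ± 0.32 (95% interval -0.87 to 0.56; edgeR adjusted p = 0.9997).

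Lgmn, the lysosomal protease, had 429.6, 606, 1089 and 805 CPM with IgG and 580.4, 583, 541 and 748 CPM with the antibody (log2 fold change -0.26 ± 0.27). Cd63, the late endosomal tetraspanin, had 159, 199, 409 and 308 CPM with IgG and 221, 237, 199.7 and 276 CPM with the antibody (-0.20 ± 0.27). Both repeated the order of the IgG animals seen for Gpnmb, with animal 3 above animal 4, then 2, then 1.

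Fabp5 had the lowest fold change of the 8. It had 253, 295, 799 and 469 CPM with IgG and 284, 299, 308 and 403 CPM with the antibody. The value of IgG animal 3 was the highest by far, and the antibody values lay between those of IgG animals 1 and 4. Its log2 fold change was -0.49 ± 0.33 (95% interval -1.24 to 0.26; edgeR adjusted p = 0.9997), and -0.07 ± 0.23 without IgG animal 3.

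Cd9 and Plin2 behaved differently from the other 6. Cd9 had 315, 163, 430.4 and 342 CPM with IgG and 336, 368, 258 and 338 CPM with the antibody. Its low library was IgG animal 2, not animal 1, and it was the member with a fold change above 0 (0.06 ± 0.26, 95% interval -0.53 to 0.64). Without IgG animal 2, the library with the lowest share of assigned alignments, the fold change was -0.16 ± 0.17. The part of library quality in the Cd9 values was not tested.

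Plin2 had 638, 577, 739 and 592 CPM with IgG and 475, 410.5, 851 and 581 CPM with the antibody. Its IgG values were close together and its extremes were both antibody animals, 2 (lowest) and 3 (highest). The log2 fold change was -0.14 ± 0.22 (95% interval -0.64 to 0.37). With that highest animal left out it was -0.38 ± 0.17 (unadjusted p = 0.051, edgeR adjusted p = 1).

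**Figure D2:**
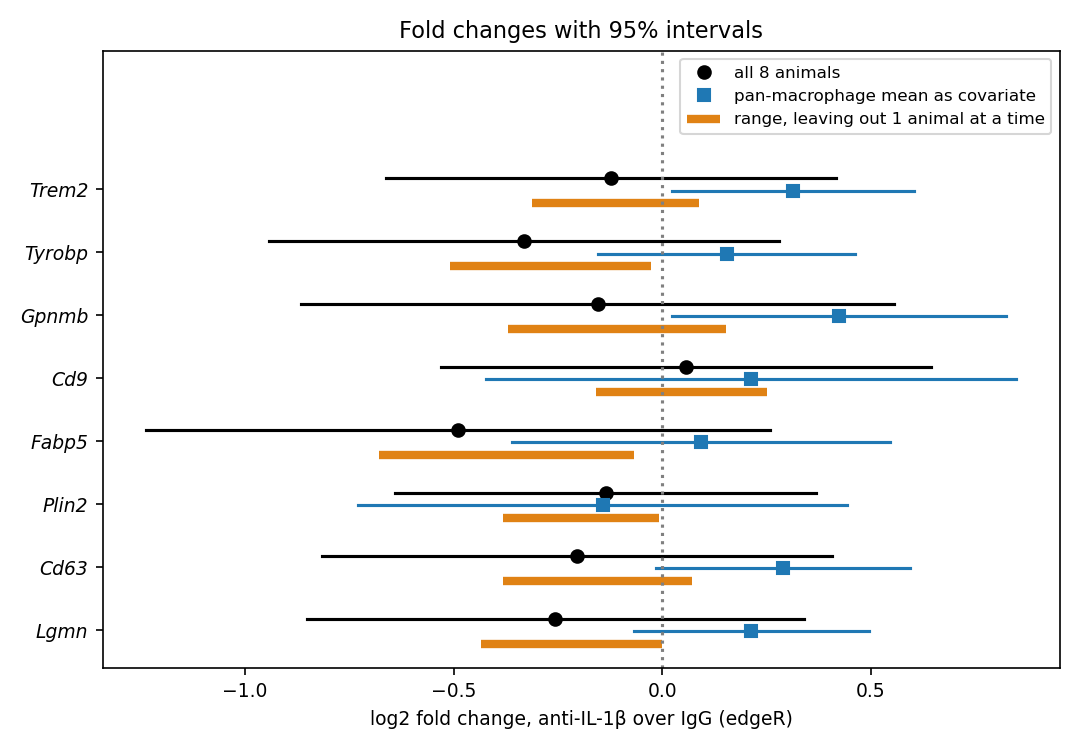
Log2 fold change of anti-IL-1β over IgG for each gene (horizontal axis) from edgeR, with its 95% interval, in the fit of all 8 animals (circles) and with the pan-macrophage mean as a covariate (squares); thick bars show the range when 1 animal at a time is left out. All 8 intervals of the fit of all animals include 0, and the squares lie to the right of the circles for every gene except Plin2.

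Direction rested on IgG animal 3 for several members. Without it, 4 of 8 members were below 0 (median log2 fold change 0.04), with Gpnmb at 0.15 ± 0.27, Trem2 at 0.09 ± 0.22 and Cd63 at 0.07 ± 0.23. Without IgG animal 1 the values moved the other way, to a median of -0.38, with Fabp5 at -0.68 ± 0.29 (unadjusted p = 0.0471, edgeR adjusted p = 0.519), Tyrobp at -0.51 ± 0.23 and Gpnmb at -0.37 ± 0.24.

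Most members spread more among IgG animals. The coefficient of variation among IgG animals was 34.7% for Trem2, 42.6% for Tyrobp, 45.6% for Gpnmb, 35.6% for Cd9, 54.6% for Fabp5, 42.0% for Cd63 and 38.6% for Lgmn. Among antibody animals it was 12.1% for Gpnmb, 13.2% for Trem2 and 16.7% at most for these 7 genes. Plin2 went the other way, with 11.5% in IgG and 33.5% in antibody animals. Among the 2160 genes that averaged at least 100 CPM, the median coefficient was 16.3% in IgG and 10.8% in antibody animals, and 70.7% of them varied more in IgG animals. The difference in spread was not tested. For 6 members, all but Cd9 and Plin2, the IgG extremes were those of animals 1 and 3, which also had the lowest and highest sums of macrophage markers. For Cd9 and Plin2 the lowest IgG value was that of animal 2.

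From animal to animal, 6 members varied together. Over the 8 animals, 15 of the 28 pairs of members passed an adjusted p of 0.05 for Pearson's r of log2 CPM (exact permutation test over pairings, two-sided, adjusted over the 28 pairs). These 15 were exactly the pairs among Trem2, Tyrobp, Gpnmb, Fabp5, Cd63 and Lgmn. Tyrobp and Lgmn had the highest value (r = 0.990, exact p = 4.96e-05, adjusted p = 0.00139; Spearman's rho = 0.976, exact p = 3.968e-04, adjusted p = 0.0111). Trem2 and Gpnmb had r = 0.984 (exact p = 3.72e-04, adjusted p = 0.00226) and rho = 0.905 (exact p = 0.00456, adjusted p = 0.0319). Trem2 and its adaptor Tyrobp had r = 0.921 (exact p = 0.00203, adjusted p = 0.00438) and rho = 0.905 (exact p = 0.00456, adjusted p = 0.0319).

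Among these 15 pairs r ranged from 0.863 to 0.990 and rho from 0.738 to 0.976, with 12 past 0.05 for rho after adjustment. With group means removed, r was 0.892 to 0.992. Without the 2 animals farthest from the median of the first gene of each pair, which were IgG animals 1 and 3 or 3 and 4, r was 0.632 to 0.979, and 0 of the 28 pairs passed over 6 animals (lowest adjusted p = 0.0959, exact permutation test). The relations thus did not hold at the adjusted threshold without those animals, though r stayed above 0.8 in 13 of the 15 pairs. Whether this came from the animals left out or from having only 6 was not tested.

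**Figure D3:**
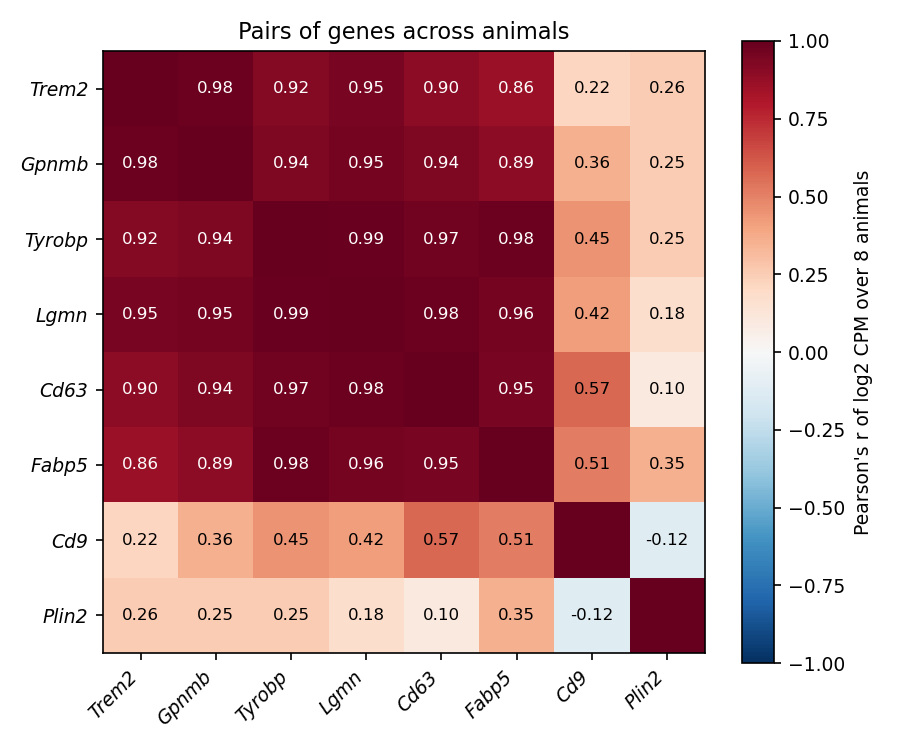
Pearson's r of log2 CPM for each pair of the 8 genes over 8 animals, on a colour scale from -1 to 1. The block of Trem2, Gpnmb, Tyrobp, Lgmn, Cd63 and Fabp5 has r of 0.86 or more, while every pair with Cd9 or Plin2 is at 0.57 or below.

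Cd9 and Plin2 stayed outside this block. Their 13 pairs had r from -0.12 (Cd9 and Plin2) to 0.572 (Cd9 and Cd63; exact p = 0.141, adjusted p = 0.247), and 0 passed for r. For rho 1 passed: Cd9 and Cd63, the pair of tetraspanins, had rho = 0.857 (exact permutation p = 0.0107, adjusted p = 0.0331). Without IgG animal 2 and antibody animal 3, the pairs of Cd9 with Fabp5 and Cd63 both had r = 0.817 over 6 animals (exact permutation, adjusted p = 0.0959).

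The named genes closest to Trem2 over the 8 animals, by Pearson's r of log2 CPM with group means removed, were Ctsz (r = 0.996), Psap (0.992), Cd5l (0.991), Tlr6 (0.990) and Ralb (0.990), of 15979 genes ordered. They held ranks 1 and 3 to 6, as 1 gene model without a proper symbol stood between them. Gpnmb was the 17th closest to Trem2, Lgmn the 121st, Tyrobp the 184th, Cd63 the 414th and Fabp5 the 446th, whereas Plin2 (5712th) and Cd9 (5789th) were far down. For Gpnmb the closest were Rnf128 (0.997), B4galt5 (0.995), Cln8 (0.994), Gla (0.994) and Pld3 (0.993). For Cd9 they were Zfp867 (0.994), Spast (0.991), Zfp422 (0.987), Ttc33 (0.987) and Mpp5 (0.984), and its own closest fellow members stood at rank 3204 (Fabp5) and 3225 (Cd63). These orders describe 8 libraries, in which genes of 1 cell type share that cell type's amount, and carry no test.

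The 6 co-varying genes followed the macrophage markers. Against the mean log2 CPM of the 16 pan-macrophage genes, r over the 8 animals was 0.945 for Lgmn, 0.933 for Tyrobp, 0.894 for Cd63, 0.894 for Fabp5, 0.867 for Trem2 and 0.845 for Gpnmb, and 0.242 for Cd9 and 0.147 for Plin2, given as descriptions without a test. All 16 pan-macrophage genes had fold changes below 0 (median log2 fold change -0.35). None passed with edgeR, and 3 had an unadjusted p under 0.05, where 3.19% of all genes did (2.06% lower with the antibody). Ptprc, the leukocyte phosphatase CD45, had -0.43 ± 0.14 and Csf1r, the receptor for macrophage growth factor, -0.38 ± 0.15.

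**Figure D4:**
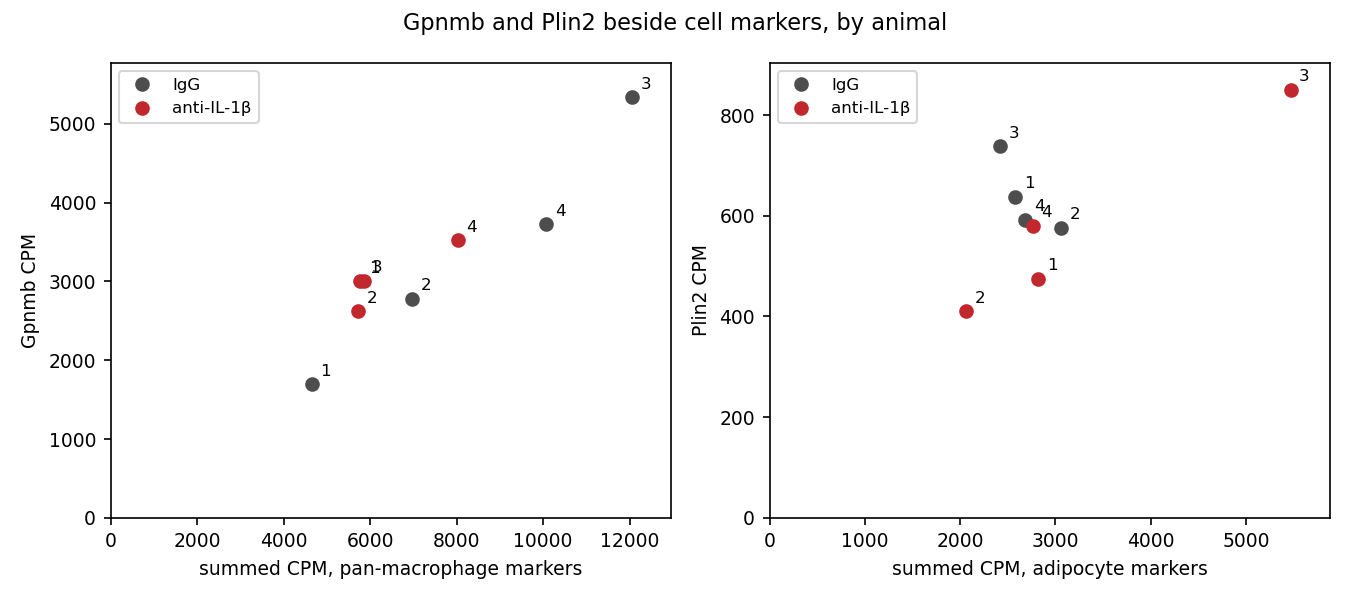
Left, Gpnmb CPM against the summed CPM of 16 pan-macrophage markers; right, Plin2 CPM against the summed CPM of 8 adipocyte markers, 1 point per animal, with animal numbers. Gpnmb runs from IgG animal 1 (1693 CPM) to IgG animal 3 (5335 CPM) along the macrophage sum. Antibody animal 3 has both the highest adipocyte sum (5469 CPM, of which Ucp1 is 3058 CPM) and the highest Plin2 (851 CPM).

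Set against the macrophage level of the same animal, 7 of 8 members had a higher mean with the antibody, as did 92.9% of all 15980 genes. The pan-macrophage mean itself was 7.33 with IgG and 7.02 with the antibody on the log2 scale, so a gene at equal levels in both groups differs by 0.31 on this relative scale. Of the 8 members 7 lay below that value and Cd9 (0.44) above it. The same 0.31 is added for every gene, so this split repeats the signs of the fold changes and is no separate result. For Trem2, log2 CPM minus the pan-macrophage mean was -0.12, 0.12, 0.24 and -0.02 with IgG (animals 1 to 4) and 0.32, 0.15, 0.47 and 0.30 with the antibody. The groups overlapped through IgG animal 3 and antibody animal 2. For Gpnmb the same difference was 3.97, 4.18, 4.67 and 4.28 in IgG and 4.60, 4.37, 4.71 and 4.51 in antibody animals, again with IgG animal 3 among the antibody values.

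For Lgmn it was 1.99, 1.98, 2.38 and 2.07 in IgG and 2.23, 2.20, 2.23 and 2.27 in antibody animals. For Cd63 it was 0.55, 0.38, 0.97 and 0.69 in IgG and 0.84, 0.90, 0.79 and 0.83 in antibody animals. In both genes 3 of the 4 IgG animals lay below all antibody animals and IgG animal 3 lay above them. Fabp5 averaged 1.35 ± 0.42 (SD, n = 4) with IgG and 1.31 ± 0.11 with the antibody, the 1 member whose mean was not higher.

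With the pan-macrophage mean as a covariate in the fit of all genes, 7 of 8 members were above 0, where 50.7% of all genes were. The log2 fold change was 0.42 ± 0.18 for Gpnmb (unadjusted p = 0.0407), 0.31 ± 0.13 for Trem2 (unadjusted p = 0.0372), 0.29 ± 0.13 for Cd63, 0.21 ± 0.12 for Lgmn, 0.21 ± 0.28 for Cd9, 0.16 ± 0.14 for Tyrobp, 0.09 ± 0.20 for Fabp5 and -0.14 ± 0.26 for Plin2. The 2 members with an unadjusted p under 0.05 compare with 3.32% of all genes in that fit. None passed (edgeR adjusted p = 0.9999 for each). The sign of the group difference for 6 of these genes therefore depended on whether macrophage level was held fixed.

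**Figure D5:**
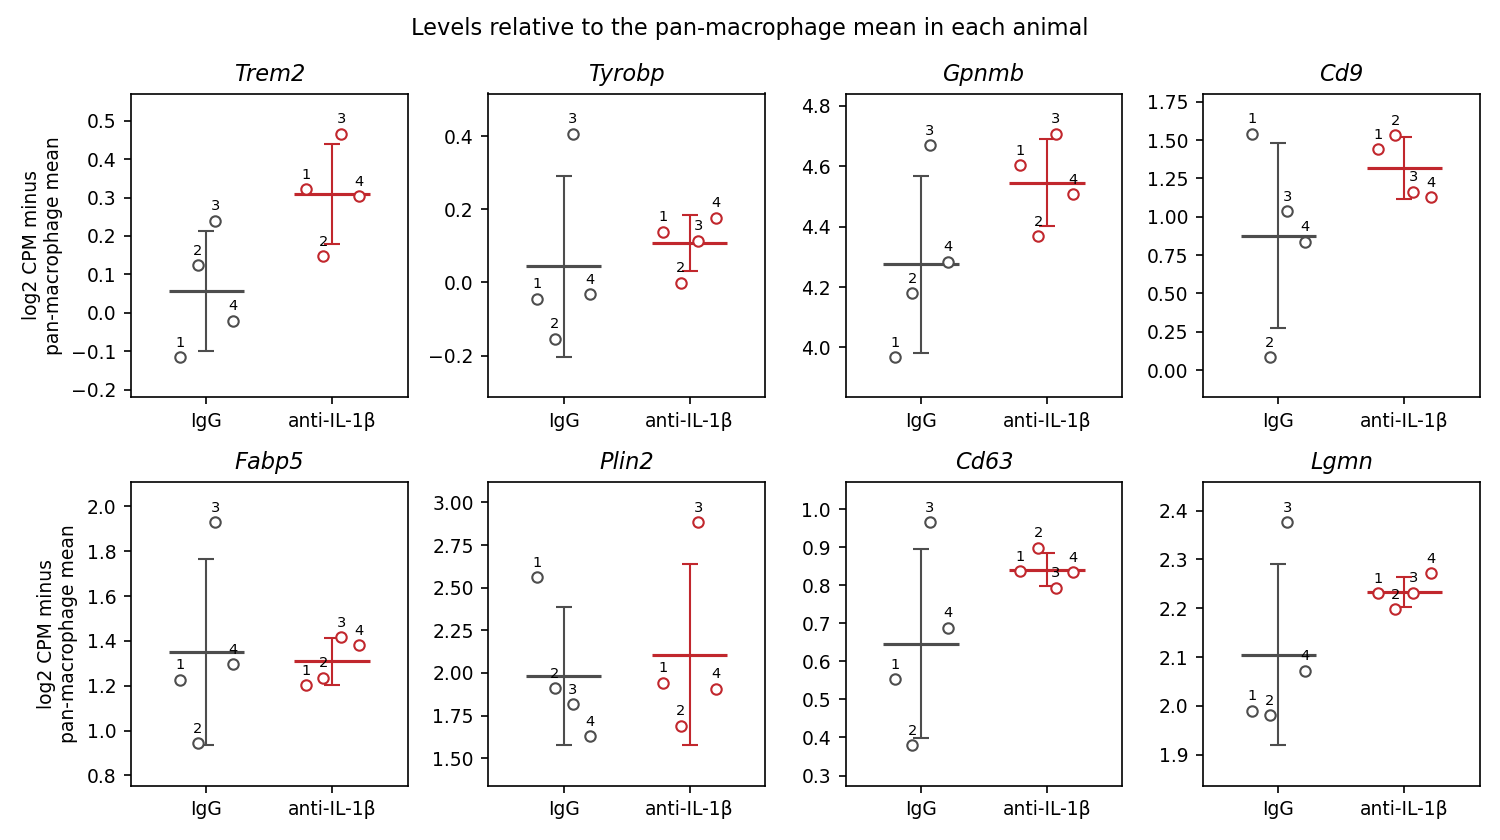
Log2 CPM of each gene minus the mean log2 CPM of 16 pan-macrophage genes in the same animal (vertical axes, log2 scale), for IgG and anti-IL-1β animals with means and SD. For Trem2, Cd63 and Lgmn IgG animal 3 is the IgG value that reaches the antibody animals; a gene at equal levels in both groups would stand 0.31 higher with the antibody on this scale.

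Signalling partners of the Trem2 and Tyrobp pair were mostly below 0, and none of the genes in any list described here passed with edgeR after adjustment. Of 17 signalling genes 16 were below 0 (median -0.26), with 1 at an unadjusted p under 0.05, where 3.19% of all genes were. Hcst (DAP10), a second adaptor that pairs with Tyrobp-linked receptors, had 3.25 ± 0.903 CPM with IgG and 2.20 ± 0.321 CPM with the antibody (log2 fold change -0.57 ± 0.24), and Ptpn6, the inhibitory phosphatase SHP-1, had -0.36 ± 0.16. Of 11 measured receptors of the Trem family or linked to Tyrobp, 10 were below 0 (9 with total-count scaling; median -0.31), led by Sirpb1a (-0.77 ± 0.33), which has close copies and is therefore uncertain, and Treml2 (-0.48 ± 0.23). Trem3, with at most 12 counts in a library, was not tested.

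Other lipid-associated macrophage genes resembled the members. Of 28, 21 were below 0 (20 with total-count scaling) with a median of -0.16. An unadjusted p under 0.05 was reached by 0, against 3.19% of all genes. Cd72, an inhibitory lectin-like receptor, had -0.51 ± 0.23, and Cd5l, a secreted macrophage protein that binds lipid-related ligands, had 1495 ± 703 CPM with IgG and 959 ± 130 CPM with the antibody (-0.64 ± 0.32). Of 22 lysosomal genes and MiT/TFE factors 21 were below 0 (20 with total-count scaling), also with a median of -0.16; Tfec, the macrophage MiT/TFE factor, had -0.29 ± 0.24 and Hexa, a lysosomal hexosaminidase, -0.30 ± 0.26.

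The relatives of Plin2 and Fabp5 had medians above 0. Of 16 perilipin and lipid droplet genes 13 were above 0 (12 with relative log expression scaling in edgeR), with a median of 0.25. The edgeR fit gave 1 an unadjusted p under 0.05, where 3.19% of all genes had such a p. Cidea, a droplet protein of brown fat, had 352, 391, 346 and 318 CPM with IgG and 486, 344, 836 and 528 CPM with the antibody (0.64 ± 0.24), and G0s2, an inhibitor of the droplet lipase Pnpla2, had 0.65 ± 0.30. Antibody animal 3 was the highest for both, as it was for the sum of the 8 adipocyte markers, all measured. Of these markers, 3 (Plin1, Cidec and Lipe) are also in the droplet list. The 8 had summed levels of 2418 to 3058 CPM with IgG and 2066 to 5469 CPM with the antibody. Of the 5469 CPM in antibody animal 3, Ucp1, a brown fat gene, made up 3058 CPM. Adipoq, Cidec, Lipe, Pparg and Plin1 were also highest there. Lep (7.39 CPM, the lowest of all 8 animals) and Cfd (279 CPM) were not. The part of these 8 markers in the Plin2 values was not tested.

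Of 7 measured relatives of Fabp5, 5 were above 0 (median 0.25). Fabp3, the heart and muscle form that brown fat also expresses, had 97.7 ± 18.4 CPM with IgG and 152 ± 67.0 CPM with the antibody (0.64 ± 0.29), and Pmp2, the form found in myelin, had 1.63 ± 0.67 at under 1.1 CPM in every library. The 18 other tetraspanins were split evenly, 9 above and 9 below 0 (median -0.02, and 0.009 with total-count scaling). Cd37, a tetraspanin of leukocytes, had -0.30 ± 0.12 and Tspan15, a partner of the sheddase Adam10, 0.34 ± 0.15.

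Marker genes of 2 other macrophage states were all below 0. The 12 inflammatory genes had a median of -0.45, with Cd86 at -0.82 ± 0.20 and Il1b at -1.05 ± 0.26. The 12 resident-like genes had a median of -0.35, with Sepp1 at -0.43 ± 0.18 and F13a1 at -0.43 ± 0.19. With edgeR, 3 inflammatory genes and 1 resident-like gene had an unadjusted p under 0.05, against 3.19% of all genes. For Cd86, Il1b and Nlrp3 of the inflammatory list the groups did not overlap. These genes have the smallest p of that list, so their lack of overlap is no separate result. Over all genes tested, the groups did not overlap for 1.96% in either direction (1.25% lower with the antibody), and for 0 of the 8 members. The differences between lists were not tested.

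Other cells that can express these genes were measured beside them. Gpnmb is a melanocyte gene, and in these libraries Tyrp1 was at 0 counts in all 8, Tyr, Dct, Mlana and Slc45a2 reached at most 18 counts in any library, and Pmel averaged 0.826 CPM with IgG and 1.03 CPM with the antibody. Osteoclasts express Tyrobp and Lgmn. Of 8 osteoclast-like markers 6 were measured, with sums of 340 to 945 CPM with IgG and 528 to 633 CPM with the antibody, and Calcr, the calcitonin receptor that defines mature osteoclasts, reached at most 4 counts.

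Of those markers Ctsk (0.08 ± 0.33) and Acp5 (-0.13 ± 0.19) did not differ detectably. Dcstamp, needed for fusion of macrophages and osteoclasts, had 1.87 ± 0.407 CPM in antibody against 13.2 ± 7.54 CPM in IgG animals (-2.81 ± 0.42, edgeR adjusted p = 0.355). Epithelial cells are named in the labels, and 5 of 8 epithelial markers were measured (median -0.51). Smooth muscle markers had a median of 0.05 over 8 genes, endothelial markers -0.07 over 8 and nerve and Schwann markers 0.19 over 8. Their part in the levels of Cd9 and Cd63 was not tested.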

How the data were processed

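RNA sequencing counts of 8 lesion libraries, 1 per mouse, were used. Exonic reads were summed by gene name by the authors with featureCounts 1.4.6-p4 and a UCSC mm9 annotation, per the file headers, with no option for strand, so antisense reads count for the gene they overlap; the deposited values are raw counts, and the exon length in bases beside them is another deposited value. STAR 3.0, CASAVA, DESeq2 and Subread also stand, without roles, in the submitters' processing notes. The deposited alignment status table shows multimapping and ambiguous reads left unassigned.

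Groups came from the sample titles, and columns were matched by library number. Here, genes passing edgeR's filterByExpr (minimum count 10, total 15) were kept, 15980 in all including all 8 members; counts were scaled by TMM and fitted with edgeR 4.0.16 (R 4.3.3; quasi-likelihood F-test, robust), adjusted over all genes. SEs come from the F statistic. Log2 CPM used a prior count of 2. Alternatives were DESeq2 1.42.0, limma-voom (limma 3.58.1) with quality weights, other scalings, no filter, a replicate block, a macrophage covariate and leaving out each animal. The code was tested on simulated data. Promoters came from RefSeq; protein sequences were not used here.

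Named genes were the 8 members, the 5 nearest genes with a proper symbol for Trem2, Gpnmb and Cd9, and the 2 genes of each list with the smallest p. Gene models without a proper symbol were counted but not named, 1 for Trem2. Dcstamp is one of the list genes. Cd68, Acta2, Cdh5, Ctsk, Acp5, Nlrp3, the melanocyte genes, Calcr and Trem3 were added after values were seen. The adipocyte markers Ucp1, Cfd, Pparg, Plin1, Cidec and Lipe, and also Rn45s, are likewise named outside this rule. The members and lists were chosen with earlier results of these data known. The 5 lists of markers for other cells gave these further medians of log2 fold change: adventitial fibroblast -0.24, adipocyte 0.25, osteoclast-like -0.14, epithelial -0.51 (5 of 8 genes measured) and melanocyte 0.33 (1 of 6). No sequencing batch is given in the labels, and intervals cover the spread between animals.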

Additional observations from a re-analysis of the deposited data

Results flagged for a closer look

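Of 86 groups of 4 animals examined for a value far from the other 3, among the 8 members and the named genes of the lists, 3 had one, where chance gives about 1 in 20. All 3 were in IgG animal 1, and none was a member. Lep, the leptin gene of white adipocytes, had 102.8 CPM there against 8.43 to 15.1 CPM in the other IgG animals. Krt8, an epithelial keratin, had 8.55 CPM against 0.438 to 1.20 CPM. Fabp3 had 70.5 CPM against 105 to 111 CPM.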

How the results depend on the processing

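None of the 8 members passed an adjusted p of 0.05 in any of the 15 alternatives, including the replicate block (0 members called, 361 genes at an unadjusted p under 0.05). Replicate numbers are shared by the groups, and no pairing of the animals was evident. The correlations of deviations of same-numbered animals were 0.293, -0.344, -0.127 and -0.0012, and 1 of 4 IgG animals correlated best with its own number. With 4 animals a group these values cannot exclude a pairing. Over all genes, 0 were called, against 8 with DESeq2, 2 with limma-voom and 0 to 1 with 1 animal left out. The 509 genes at an unadjusted p under 0.05 became 2772 with limma-voom, 1517 without IgG animal 1, 783 without antibody animal 2, 310 without IgG animal 4 and 336 without antibody animal 3. With total-count scaling 46.2% of all genes were below 0, against 52.3%.

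Fold changes changed sign with the pan-macrophage covariate for Trem2 (0.31), Tyrobp (0.16), Gpnmb (0.42), Fabp5 (0.093), Cd63 (0.29) and Lgmn (0.21), without IgG animal 3 for Trem2 (0.088), Gpnmb (0.15) and Cd63 (0.071), and for Cd9 with limma-voom (-0.040), without IgG animal 2 (-0.16) and without antibody animal 2 (-0.005); the cause was not tested. With 1 animal left out the values ran from -0.31 to 0.088 for Trem2, -0.37 to 0.15 for Gpnmb, -0.38 to 0.071 for Cd63 and -0.16 to 0.25 for Cd9. Plin2 was below 0 in all 15 alternatives. The count of pairs past 0.05 was 15 for r, 13 for rho and 0 without the 2 farthest animals, where 6 animals remain. With 4 animals a group, 95% intervals of the members were wide, from 0.424 to 1.20 times the IgG level for Fabp5 and 0.549 to 1.47 times for Gpnmb.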
